A study of Sus scrofa with 4 samples.

Results

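miR-192, miR-194, miR-122 and miR-885 are microRNAs (miRNAs, RNAs of about the length of a short primer that lower the output of target mRNAs) that are enriched in liver, and they were followed here in skeletal muscle of 4 pig breeds. The members were the rows of the deposited table of known miRNAs whose name, without its arm suffix, was miR-192, miR-194a, miR-194b, miR-122 or miR-885. The rule used names and no measured value, but it was set with earlier results of these data known. It found 5 of the 271 rows: miR-192, miR-194a, miR-122, miR-885-5p and miR-885-3p. Each library came from longissimus dorsi, a long muscle beside the spine, of 1 breed, and there were 4 libraries. Diannan Small Ear and Tibetan pigs made up the indigenous Chinese type, Landrace and Yorkshire the introduced type, so that a type had 2 libraries and a breed 1. The labels give no age, sex, genotype or treatment, and do not say whether a library held 1 animal or a pool, so the p-values measure only the spread between these libraries, which may be technical.

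miR-122 is the most abundant miRNA of hepatocytes and is known for its part in cholesterol metabolism. Its level in plasma rises when liver is damaged. miR-192 and miR-194 are processed from shared primary transcripts and are typical of liver, gut and kidney epithelium. A second copy of the pair joins miR-215, whose mature sequence is close to that of miR-192, to another miR-194 gene. miR-885-5p is a liver-enriched and plasma-borne miRNA in human. In the RefSeq annotation of assembly Sscrofa11.1, genes were put in order of their start position. MIR194A and MIR192 followed each other, after the start of ATG2A and before that of EHD1. MIR215 and MIR194B followed each other, after the start of IARS2 and before that of RAB3GAP2. MIR122 came just before NEDD4L, and MIR885 after ATP2B2 and before SLC6A11. This order does not say whether a miRNA gene lies inside the gene that starts before it. No source used here gives the genome build of the deposited files, and coordinates are left out for that reason.

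Counts to all listed miRNAs ranged from 2507082 in Landrace to 5346460 in Yorkshire. The libraries did not group by type. Striated muscle miRNAs, such as the muscle-specific miR-1, took 90.4% of the Tibetan and 96.9% of the Yorkshire counts, against 17.6% in Diannan Small Ear and 21.6% in Landrace. miR-1 itself held 0.256% in Diannan Small Ear and 0.355% in Landrace, little for a library labelled as skeletal muscle. In these 2 libraries the muscle share was mostly miR-486, also an erythroid miRNA, with 117900 of 176200 CPM in Diannan Small Ear and 142400 of 216000 in Landrace. The libraries fell into the pair Diannan Small Ear and Landrace and the pair Tibetan and Yorkshire, called library pairs below. This split cannot be told apart from any other property that the libraries of a pair share, such as a batch that the labels do not name. Labels exchanged between the types cannot be told apart from it either, and would change what each value of indigenous over introduced breeds means. Levels are given as TMM-scaled CPM, counts set to a common library size by a scaling (trimmed mean of M values) that discounts the few very abundant miRNAs, and ratios of 2 miRNAs within 1 library need no scaling.

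miR-192 was abundant in both libraries of one pair and scarce in both of the other. It had 2989 counts in Diannan Small Ear and 2314 in Landrace, against 25 in Tibetan and 13 in Yorkshire, which came to 499, 417, 7.07 and 7.06 TMM-scaled CPM. Its place among the 271 miRNAs by count was 34 and 36 in Diannan Small Ear and Landrace, and 147 and 141 in Tibetan and Yorkshire. The high and the low libraries each held 1 indigenous and 1 introduced breed, so the types overlapped. Among the miRNAs with reads in both libraries, miR-192 had the second highest ratio of 194 for Diannan Small Ear over Tibetan and the second highest of 192 for Landrace over Yorkshire. Within the pairs it differed little on this scale. Diannan Small Ear stood 1.20-fold above Landrace (95% exact binomial interval 1.13 to 1.26), and Tibetan over Yorkshire was 1.00 (0.493 to 2.13). With total counts in place of TMM these became 0.719 (0.681 to 0.760) and 2.86 (1.41 to 6.09), so the order within a pair depends on the scaling and the order between the pairs does not. All such intervals, and the floor for a count of 0 given below, allow for counting error alone. A breed had 1 library, so spread between animals or library preparations is not in them. PCR copies of 1 molecule are counted as separate reads, so even the counting error may be larger than shown.

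miR-194a, the neighbour of miR-192, did not share this pattern. It had 34 counts in Diannan Small Ear, 19 in Landrace, 26 in Tibetan and 15 in Yorkshire, or 5.67, 3.43, 7.35 and 8.14 TMM-scaled CPM. The 4 levels lay close together on this scale, and with total counts Yorkshire, at 2.81 CPM, lay below the other 3, at 7.24 to 7.58. Yorkshire, Tibetan and Diannan Small Ear, the upper 3, did not differ beyond counting error, with Diannan Small Ear over Yorkshire at 0.696 (0.369 to 1.38). Landrace was 2.38-fold below Yorkshire (1.12 to 4.94) with TMM, but 2.70-fold above it (1.30 to 5.71) with total counts. In that comparison the total-count scale raises every ratio 6.42-fold.

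**Figure D1:**
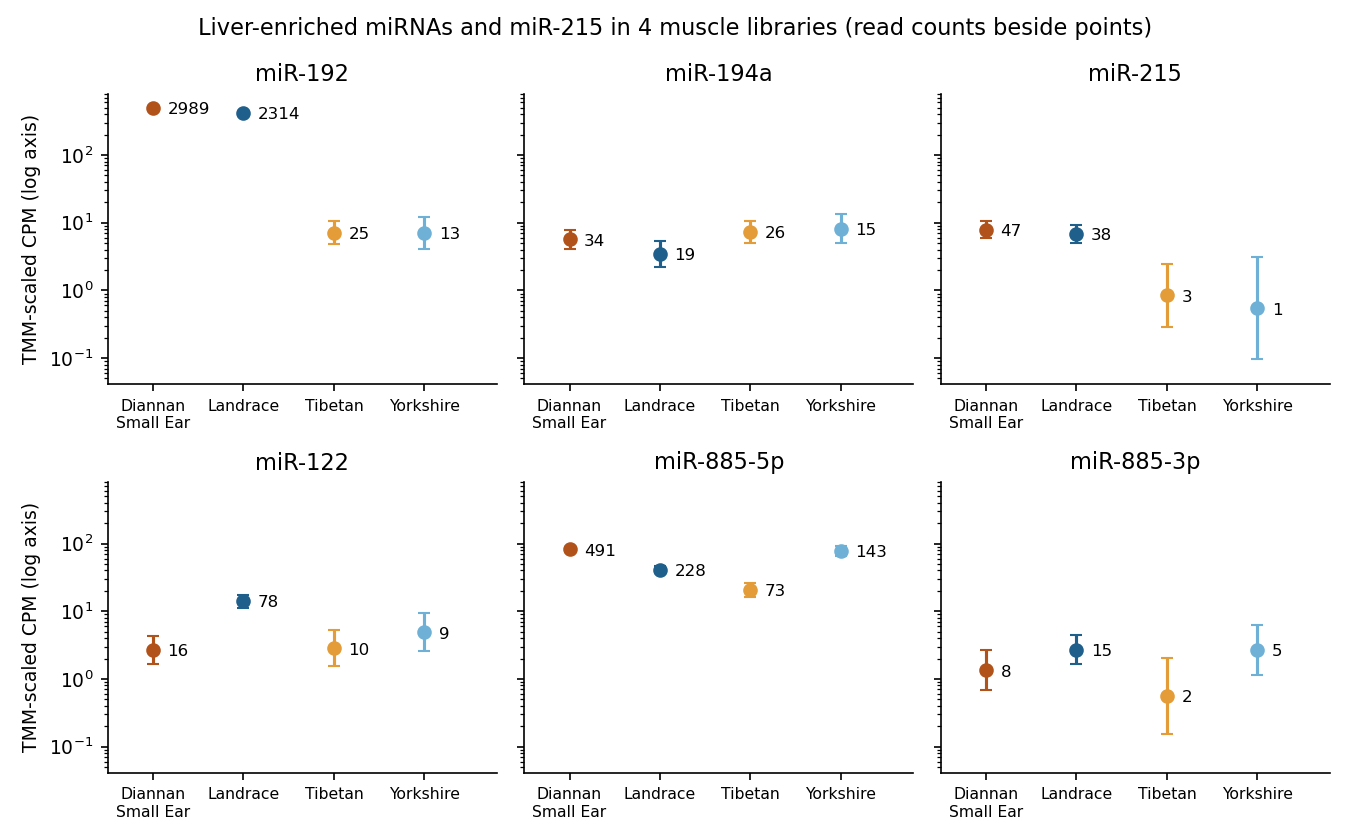
TMM-scaled CPM (log axis) of the 5 members and of miR-215 in each of the 4 libraries, with 95% Wilson counting intervals as bars and the read count beside each point. miR-192 and miR-215 are high in Diannan Small Ear and Landrace, miR-194a is at 3.43 to 8.14 in all 4 libraries, and miR-122 is highest in Landrace.

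The ratio of the cluster partners within a library shows the difference without any scaling. miR-192 had 87.9 reads per read of miR-194a in Diannan Small Ear (62.8 to 127) and 122 in Landrace (77.8 to 203). In Tibetan the ratio was 0.962 (0.533 to 1.73) and in Yorkshire 0.867 (0.380 to 1.95). The partners were thus counted about equally in one library pair and were far apart in the other. The ratio was 91.4-fold higher in Diannan Small Ear than in Tibetan (95% exact conditional interval 45.3 to 182), and 140.5-fold higher in Landrace than in Yorkshire (53.4 to 365). Within the pairs it was 0.722 for Diannan Small Ear against Landrace (0.388 to 1.31) and 1.11 for Tibetan against Yorkshire (0.399 to 3.10), and both intervals include 1. Between the types the mean log2 ratio was 3.20 ± 4.61 in indigenous and 3.36 ± 5.04 in introduced breeds (SD, n = 2 each), a difference of -0.16. An exact two-sided permutation test gave p = 1.0, where 2 libraries against 2 allow no p below 0.333. The shares of reads that a kit captures can differ between miRNAs, so a ratio within 1 library is a ratio of reads and not of molecules. miR-194b, from the other miR-194 gene, had no row of its own, and the 2 mature miR-194 sequences are close enough that reads may be shared.

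miR-215, which is no member but shares its seed with miR-192, lay on the side of miR-192. It had 47 counts in Diannan Small Ear, 38 in Landrace, 3 in Tibetan and 1 in Yorkshire. The libraries rich in miR-192 were those rich in miR-215. miR-192 had 63.6 reads per read of miR-215 in Diannan Small Ear (47.7 to 86.8) and 60.9 in Landrace (44.2 to 86.3). In Tibetan the ratio was 8.33 (2.54 to 43.1) and in Yorkshire 13.0 (1.95 to 552). The ratio of miR-215 to miR-194a was 1.38 in Diannan Small Ear (0.870 to 2.22), 2.0 in Landrace (1.12 to 3.67), 0.115 in Tibetan (0.0224 to 0.377) and 0.0667 in Yorkshire (0.00158 to 0.433). No source used here says how reads that match both miR-192 and miR-215 were counted, so the separate values of this pair are uncertain.

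**Figure D2:**
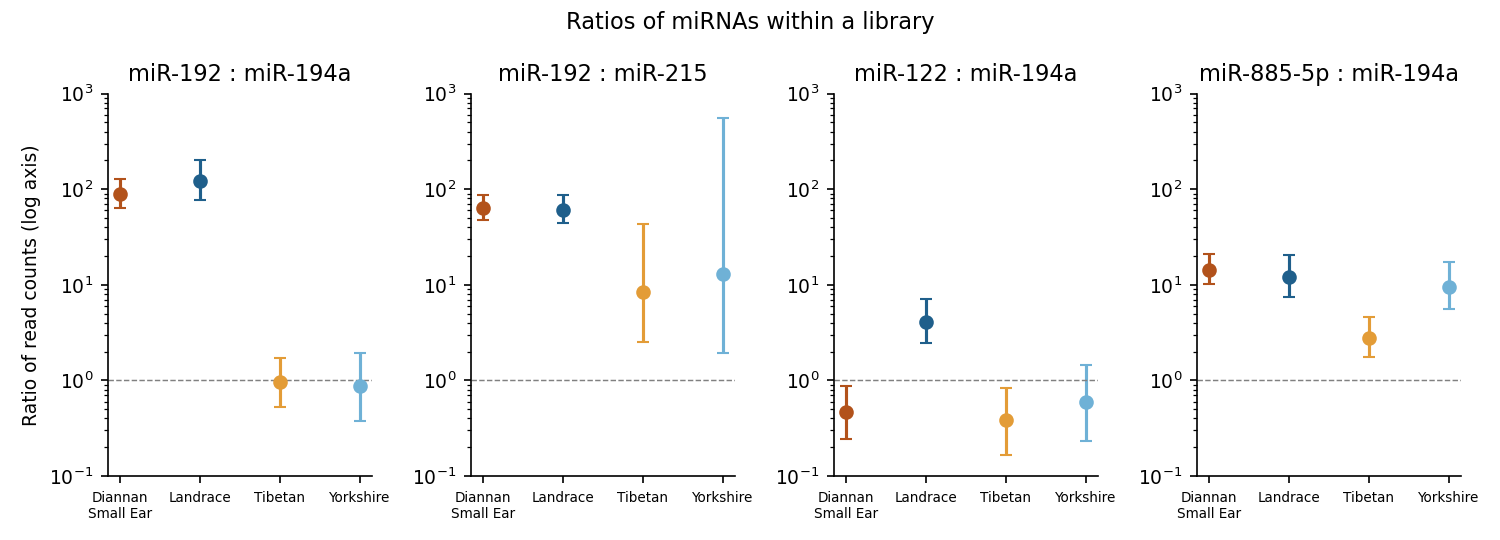
Ratio of the read counts of 2 miRNAs within each library (log axis), with 95% exact binomial intervals, and a dashed line at equal counts. miR-192 to miR-194a is 87.9 and 122 in Diannan Small Ear and Landrace and near 1 in Tibetan and Yorkshire, while miR-122 to miR-194a stands apart in Landrace and miR-885-5p to miR-194a is lowest in Tibetan.

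miR-122, the hepatocyte miRNA, was scarce in all 4 libraries and highest in Landrace. It had 16 counts in Diannan Small Ear, 78 in Landrace, 10 in Tibetan and 9 in Yorkshire, or 2.67, 14.1, 2.83 and 4.89 TMM-scaled CPM. A count of 0 would allow up to 3 counts, which is 0.50 to 1.63 TMM-scaled CPM over these libraries, so each level lay above that floor. Landrace was the 1 library that stood apart. It exceeded Diannan Small Ear 5.27-fold (3.05 to 9.67), Tibetan 4.97-fold (2.57 to 10.8) and Yorkshire 2.88-fold (1.44 to 6.53). These comparisons share the Landrace library, and with total counts the same 3 folds were 8.75, 11.2 and 18.5. The other 3 libraries did not differ beyond counting error in any pair with TMM, such as Tibetan over Yorkshire at 0.579 (0.211 to 1.61). miR-122 had the second lowest of 196 ratios for Diannan Small Ear over Landrace, a comparison in which 8.67% of the miRNAs differed at least 2-fold in either direction. Across the library pairs it was less extreme, 26th highest of 194 for Landrace over Tibetan and 45th highest of 192 for Landrace over Yorkshire. In the last comparison 32.3% of the miRNAs were at least 2-fold higher in Landrace.

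miR-122 did not move with the other liver-enriched members. There were 187 reads of miR-192 per read of miR-122 in Diannan Small Ear (115 to 327), 29.7 in Landrace (23.7 to 37.7), 2.5 in Tibetan (1.16 to 5.83) and 1.44 in Yorkshire (0.571 to 3.83). miR-122 was counted below miR-194a in Diannan Small Ear, at 0.471 (0.243 to 0.876), and in Tibetan, at 0.385 (0.166 to 0.824). In Yorkshire it was at 0.6 (0.231 to 1.46), and in Landrace above miR-194a, at 4.11 (2.46 to 7.18). In every library miR-122 had fewer reads than miR-192 and than miR-885-5p. Landrace exceeded Diannan Small Ear 8.72-fold in the ratio of miR-122 to miR-194a (3.75 to 20.5).

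Other miRNAs abundant in liver were set beside miR-122, and whether RNA from liver cells or plasma contributed to it was not tested. Of 8 such names 6 had rows, 10 rows in all, and 7 rows passed the filter on low counts. The 3 most abundant were miR-148a-3p, a regulator of lipoprotein uptake, miR-101 and miR-365-3p. miR-148a-3p measured 1676 TMM-scaled CPM in Diannan Small Ear, 1441 in Landrace, 2078 in Tibetan and 2341 in Yorkshire, so Landrace was the lowest on this scale. miR-101 measured 775, 771, 2884 and 5720 in the same order, and miR-365-3p 167, 102, 90.2 and 177. None of these 3 was highest in Landrace with TMM, but with total counts miR-148a-3p (3187 CPM) and miR-365-3p (225 CPM, against 223 in Diannan Small Ear) were. Between Diannan Small Ear and Landrace, 0 of the 7 differed at least 2-fold with TMM, beside 8.67% of all miRNAs. With 7 rows, 0 is near that share. Their median log2 ratio was 0.35, beside 0.03 over all miRNAs. miR-148a-3p and miR-101 are also expressed well outside the liver.

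**Figure D3:**
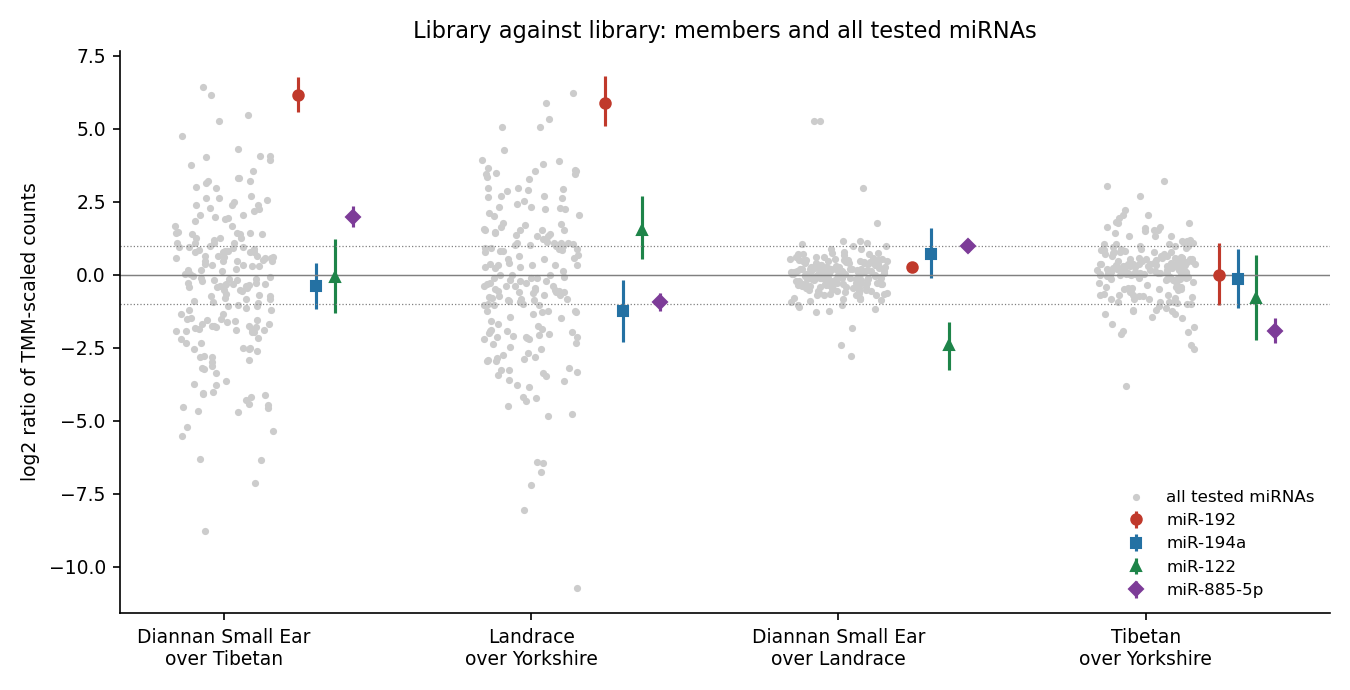
log2 ratio of TMM-scaled counts between 2 libraries for miR-192, miR-194a, miR-122 and miR-885-5p (coloured, with 95% exact binomial intervals), beside all tested miRNAs with reads in both libraries (grey, spread sideways at random). Dotted lines mark 2-fold. miR-192 is near the top of both left comparisons and near 0 in both right ones, and miR-122 is near the bottom for Diannan Small Ear over Landrace.

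miR-885-5p was present at moderate levels in every library, and with TMM its order of libraries matched neither miR-192 nor miR-122. It had 491 counts in Diannan Small Ear, 228 in Landrace, 73 in Tibetan and 143 in Yorkshire, or 81.9, 41.1, 20.6 and 77.6 TMM-scaled CPM. Diannan Small Ear and Yorkshire were highest and did not differ beyond counting error (1.06, 0.874 to 1.28), Landrace was 1.99-fold below Diannan Small Ear (1.70 to 2.34), and Tibetan was lowest, 1.99-fold below Landrace (1.52 to 2.63). With total counts the order was Diannan Small Ear, Landrace, Yorkshire and Tibetan, at 109, 90.9, 26.7 and 20.3 CPM. Yorkshire moved below Landrace on that scale, and Diannan Small Ear and Tibetan kept the highest and the lowest place. The total-count levels were thus higher in Diannan Small Ear and Landrace than in Tibetan and Yorkshire, as for miR-192, though by much less. Against miR-194a, with no scaling, miR-885-5p had 14.4 reads in Diannan Small Ear (10.2 to 21.1), 12.0 in Landrace (7.51 to 20.3), 9.53 in Yorkshire (5.59 to 17.5) and 2.81 in Tibetan (1.77 to 4.58). The Tibetan ratio was 3.40-fold below that of Yorkshire (1.61 to 7.32) and 4.27-fold below that of Landrace (2.13 to 8.65).

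miR-885-3p, the other arm of the same hairpin, was near the limit of counting. It had 8 counts in Diannan Small Ear, 15 in Landrace, 2 in Tibetan and 5 in Yorkshire, and it was the 1 of 5 members that did not pass the filter. The 5p arm took 98.4% of the reads of both arms in Diannan Small Ear (95% Wilson interval 96.9 to 99.2), 93.8% in Landrace (90.1 to 96.2), 97.3% in Tibetan (90.8 to 99.3) and 96.6% in Yorkshire (92.3 to 98.5). The 5p arm dominated in each library. Diannan Small Ear exceeded Landrace 4.04-fold in the ratio of 5p to 3p reads (1.58 to 11.1), and the intervals of Diannan Small Ear against Tibetan and of Landrace against Yorkshire include 1. Between Diannan Small Ear and Landrace the arms pointed in opposite directions, with miR-885-3p 2.03-fold higher in Landrace at an interval of 0.807 to 5.52 that includes 1.

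Counted over the 4 members that passed the filter, 2 were at least 2-fold higher in Diannan Small Ear than in Tibetan and 0 lower. In that comparison 63.9% of all miRNAs differed at least 2-fold, 27.3% higher and 36.6% lower. Between Landrace and Yorkshire 2 members were higher and 1 lower, beside 66.7% of all miRNAs, 32.3% higher and 34.4% lower. Between Diannan Small Ear and Landrace 0 of 4 members were higher and 1 lower, beside 8.67% of all miRNAs, 4.08% higher and 4.59% lower. Between Tibetan and Yorkshire 0 of 4 were higher and 1 lower, beside 24.5%, 14.6% higher and 9.90% lower, and with total counts 2 of 4 differed, beside 80.7%. With 4 members these shares were not tested against those of all miRNAs. With so few members, no departure from the background is read from these shares. The 1 member was miR-122 between Diannan Small Ear and Landrace, with TMM and with total counts. Between Tibetan and Yorkshire it was miR-885-5p with TMM (0.266), which came to 0.760 with total counts, where miR-192 (2.86) and miR-194a (2.58) were the 2 past 2-fold.

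None of the members was called between the types. Over all 197 miRNAs tested with edgeR's quasi-likelihood test, 0% passed an adjusted p of 0.05 (0 miRNAs, and 1 with an unadjusted p below 0.05), and DESeq2 and limma-voom called 0 as well. The lowest estimate among the tested members was that of miR-122, with 2.75 ± 0.112 TMM-scaled CPM in indigenous and 9.47 ± 6.49 in introduced breeds (SD, n = 2 each). Its log2 fold change of indigenous over introduced was -1.79 ± 0.91 (SE, edgeR adjusted p = 0.996). Its types did not overlap, which held for 13.7% of all tested miRNAs, but on the total-count scale Yorkshire, at 1.68 CPM, lay below both indigenous libraries, at 3.55 and 2.78. Without Landrace the log2 fold change was -0.67 ± 1.5 (edgeR adjusted p = 0.997). With a term for the library pair the estimate was -1.68 ± 0.60 (edgeR adjusted p = 0.261), a fit whose spread is shared over all miRNAs and does not measure that of miR-122. The log2 fold change was 0.25 ± 2.40 for miR-192, 0.19 ± 0.85 for miR-194a and -0.21 ± 1.12 for miR-885-5p, each with an edgeR adjusted p of 0.996. miR-192 measured 253 ± 348 against 212 ± 290.0 TMM-scaled CPM, a spread within each type larger than its mean. Without Diannan Small Ear its log2 fold change was -5.04 and without Landrace 5.33, and with total counts -0.46.

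The authors' deposited table gives means that are lower in indigenous breeds, with an FDR below 0.05, for miR-192 and miR-122. In the authors' deposited table miR-192 has mean CPM of 336 and 463, a fold of 0.725 and an FDR of 3.98e-05. For miR-122 the authors' deposited table has 3.17 and 16.4, a fold of 0.193 and an FDR of 0.0257. miR-194a (fold 1.42, FDR 0.991), miR-885-5p (1.10, 0.984) and miR-885-3p (0.337, 0.970) have FDR values above 0.9 in the authors' deposited table. No source used here names the test behind these values. For miR-192 and miR-885-5p the direction of the authors' fold is that of the total-count scale, and opposite to the TMM estimate above.

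Epithelial miRNAs were read as markers of gut, kidney or gland cells, where miR-192 and miR-194 are also typical. Of 13 names 6 had rows, and 3 rows passed the filter, miR-182, miR-183 and miR-215. These 3 reached the minimum count of 10 in Diannan Small Ear and Landrace alone, so they passed only through the libraries where they were high, and their values are a description. miR-182 measured 32.2 TMM-scaled CPM in Diannan Small Ear, 41.3 in Landrace, 1.98 in Tibetan and 2.71 in Yorkshire, and miR-183, its cluster neighbour in mammals, 7.51, 9.02, 0.848 and 2.17. The summed level of the 6 rows was 47.9 and 60.6 TMM-scaled CPM in Diannan Small Ear and Landrace, and 5.65 and 8.14 in Tibetan and Yorkshire. miR-205, of squamous epithelium and chosen after its values were seen, did not pass the filter and went another way, with 1 count in Diannan Small Ear, 15 in Landrace, 7 in Tibetan and 5 in Yorkshire. miR-429, of the miR-200 family that defines epithelium, had 1, 3, 0 and 0 counts in the order Diannan Small Ear, Landrace, Tibetan and Yorkshire. The part of such cells in the miR-192 level was not tested.

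Further lists gave these values. The erythroid miRNAs miR-451, miR-144 and miR-486 summed to 88550, 64480, 6183 and 5930 TMM-scaled CPM in the same order of libraries, nearly all of it miR-486, which muscle expresses as well. miR-451, the more specific marker, measured 63.7, 111, 234 and 93.4. Of the 3, 0 were called between types, with 3 higher estimates in indigenous breeds and a median log2 fold change of 0.54. miR-192, miR-194 and miR-215 are induced by p53 in human cells. The p53-responsive list beyond the members, led by miR-145-5p and miR-145-3p, had 4 tested rows with 0 called, 4 higher estimates and a median of 0.41. Its summed level was 70.9, 71.4, 363 and 193 TMM-scaled CPM. miR-215 is in the liver, epithelial and p53 lists, and miR-486 in the erythroid and striated muscle lists, so these are not independent. The arms of miR-145 in the p53 list come from the same hairpin and are not independent either. The 9 striated muscle rows had 0 called, with 3 higher and 6 lower estimates and a median of -0.72, and the 7 liver rows 0 called, 4 higher, 3 lower and a median of 0.18. The 3 epithelial rows had 0 called, 1 higher and 2 lower estimates and a median of -0.37. Over all 197 tested miRNAs 0 were called, and the median was 0.12. Higher estimates were thus the more common over all miRNAs. In whole tissue, fewer cells of a type and less RNA per cell cannot be told apart.

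The profile of each member over the 4 libraries was compared with that of the other miRNAs with at least 100 reads in all. The measure was the root mean square difference of log2 TMM-scaled CPM, each miRNA centred on its own mean, so that a small value means a similar shape. Nearest to miR-192 were miR-10b and miR-10a-5p, both encoded in HOX gene clusters, at 0.32 and 0.33, and miR-191 at 0.38, where the median over 151 miRNAs was 3.12. Seen from miR-194a, miR-192 was 151st of 152 miRNAs, at a difference of 3.34. The same difference lies near the median seen from miR-192, whose profile is far from that of most miRNAs. Nearest to miR-122 were miR-208b, which lies in a slow myosin gene, at 0.42, miR-221-3p at 0.57 and miR-664-3p at 0.60, with a median of 1.23, and miR-192 was 142nd of 151, while seen from miR-192, miR-122 was 60th of 151 at 2.77. Nearest to miR-885-5p were miR-15a at 0.36, miR-365-3p at 0.42 and miR-16 at 0.55, with a median of 1.28. miR-365-3p is also in the liver list, and miR-122 was 71st of 151 in likeness to miR-885-5p. With 4 libraries these are descriptions, and no test was made.

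**Figure D4:**
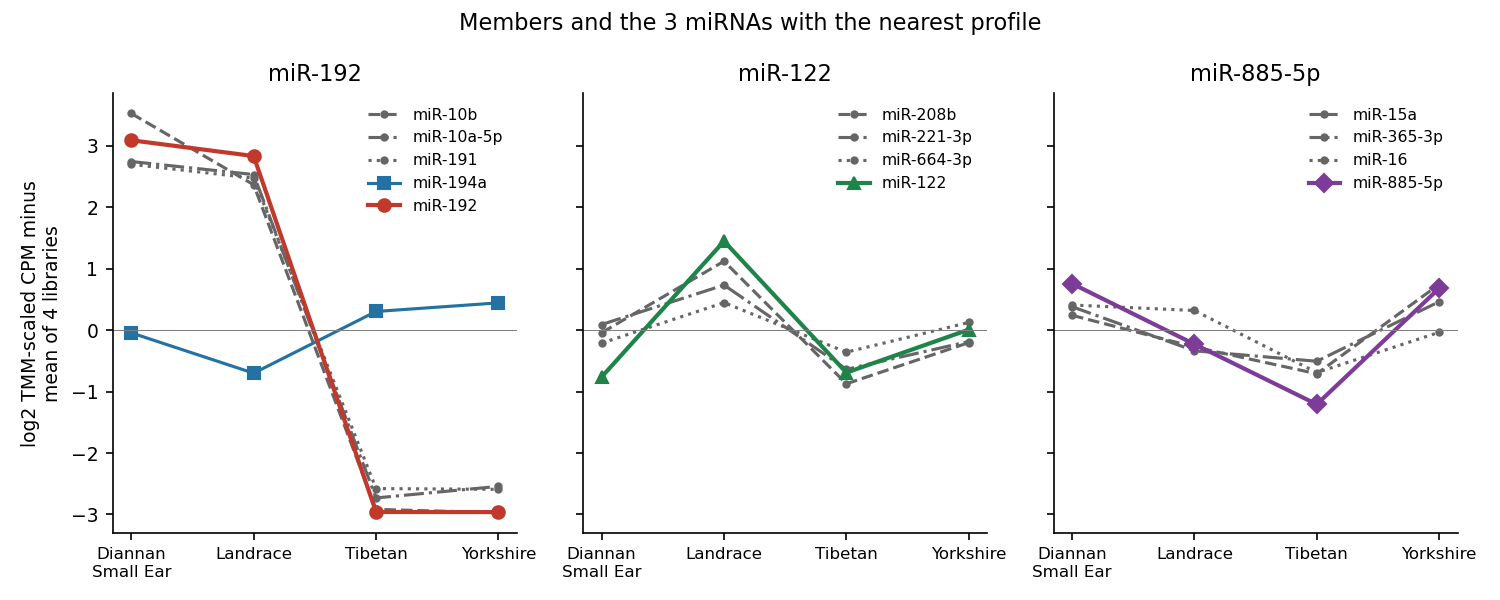
log2 TMM-scaled CPM of miR-192, miR-122 and miR-885-5p in each library, minus the mean over the 4 libraries, with the 3 miRNAs nearest in profile (grey) and, in the left panel, miR-194a (blue). Lines only join the points of 1 miRNA. miR-192 and its 3 nearest miRNAs drop from Diannan Small Ear and Landrace to Tibetan and Yorkshire, and miR-194a does not.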

How the data were processed

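Small RNA libraries were made from Trizol-extracted total RNA with a Balancer kit, per the labels' protocols. The deposited table holds whole-number read counts per known miRNA, per the file headers, while aligner, database, build and the handling of reads matching several miRNAs are not given in the sources read. CPM values, deposited by the authors, equal each count over its column total (within 4.2e-05). A mean signal per type, a fold (ratio) of those means, p-values and FDR values were also deposited by the authors.

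Counts were tested with edgeR 4.0.16 (quasi-likelihood test, two-sided, filterByExpr with a minimum count of 10, TMM, Benjamini-Hochberg over all tested miRNAs, threshold 0.05, 2 residual degrees of freedom) in R 4.3.3. The SE is the fold change over the root of the F statistic. Alternatives used DESeq2 1.42.0, limma-voom 3.58.1, other scalings and filters, the table without its 5 most abundant miRNAs, a library pair term, and each library left out. The script was tested on simulated data whose spread between libraries was far smaller than in these data. That test does not show which changes the fit could find here. Breeds have 1 library each, so ratios between libraries have no test, only 95% exact intervals for counting error, and 2-fold was the limit used. Members, lists and library pairs were chosen with earlier results of these data known. Named miRNAs are the members, the most abundant 3 of each list, and the 3 nearest in profile (log2 prior count 2). miR-205 and miR-429 were added after their values were seen.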

Additional observations from a re-analysis of the deposited data

How the results depend on the processing

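The labels give no replicate number or animal that the types share, so no pairing comes from the design. With a term for the library pair, a split known from these data, edgeR called 1 miRNA between types in place of 0, and that miRNA was no member. With total counts, members at least 2-fold different between Tibetan and Yorkshire numbered 2 in place of 1, miR-194a in Landrace over Yorkshire turned to 2.70 (from 0.421), and the log2 fold change between types turned to 0.14 for miR-885-5p and to -0.46 for miR-192. Total counts use a sum that miR-1 dominates in Tibetan and Yorkshire. In the other library pair miR-10b took a large part of the sum. It had 2784571 of 4500803 counts in Diannan Small Ear and 1152694 of 2507082 in Landrace. Leaving out 1 library at a time gave log2 fold changes from -1.64 to 0.47 for miR-885-5p (0.47 without Tibetan and 0.205 without Yorkshire were reversed), from -0.17 (without Landrace) to 0.80 for miR-194a (-0.002 without Tibetan), and from -5.04 (without Diannan Small Ear) to 5.33 for miR-192 (-0.83 without Yorkshire). For the log2 ratio of miR-192 to miR-194a between types, the same step, an alternative chosen after seeing the data, gave -3.73 (without Yorkshire) to 3.41 (without Landrace), and 3.10 without Tibetan, with exact permutation p of 0.667 to 1.0. These fits set 1 library against 2 and are unbalanced over the library pairs. No member passed in any of the alternatives run, where the lowest edgeR adjusted p was 0.261 (miR-122 with the pair term). miR-194a, miR-122 and miR-885-3p had 113 or fewer reads over all libraries, which limits their ratios.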
